A study of Mus musculus with 4 samples.

Results

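The Ifitm genes encode interferon-induced transmembrane proteins, and 5 of them were followed here: Ifitm1, Ifitm2, Ifitm3, Ifitm5 and Ifitm6. They were chosen by gene symbol in the annotation of the array, among probesets with exactly 1 symbol, and each gene was represented by the probeset with the highest mean over the 4 arrays. All 5 genes were found, of 19938 genes so represented, and 5 of 5 reached the floor on at least 1 array. The floor, a log2 signal of 2.52, is the median of all values of single-symbol probesets.

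RNA came from mouse bone marrow-derived macrophages, grown for 7 days with 10% supernatant of L929 cells, a fibroblast line that secretes the macrophage growth factor M-CSF, and sorted for the macrophage protein F4/80 after the culture under study. The 4 groups held 1 array each: 4get/Stat6-/- macrophages cultured for 24 h with IL-4, 4get/Stat6-/- macrophages in medium, wild-type BALB/c macrophages cultured for 24 h with IL-4, and wild-type BALB/c macrophages in medium. The IL-4 dose is 10 µg/mL in the sample protocols, while the series text gives the same figure in mg/mL. Stat6-/- cells lack the transcription factor that carries the signal of the IL-4 receptor to the nucleus, and their strain name adds 4get, an IL-4 reporter allele that the BALB/c label does not name, so that loss of Stat6 and the 4get allele cannot be told apart. The number of mice behind each array is not given in the sources used here.

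IFITM proteins are small membrane proteins of the CD225 family that sit in the plasma membrane and in endosomes. They hinder the fusion of enveloped viruses with the cell's membranes, and IFITM3 is the member best known for restricting influenza virus. Ifitm1, Ifitm2 and Ifitm3 are induced by interferons, Ifitm5 is known from bone-forming osteoblasts, and Ifitm6 is a less studied mouse member. IL-4 is a cytokine of type 2 immunity that drives macrophages to the alternatively activated state.

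Levels are given as log2 RMA signals, and each difference is the log2 signal of the first-named group minus that of the second. A gene is said to have risen or fallen where the difference was at least 1, which is 2-fold, and the higher array reached the floor. Because each group was a single array, nothing could be tested and no spread between replicates is known, and comparisons that use the same array are not independent of each other. Signals of different genes are not compared, since probes differ in how strongly they bind. Stat6 itself was at 4.25 in Stat6-/- cells with IL-4 and 4.54 in Stat6-/- cells in medium, against 6.68 in wild-type cells with IL-4 and 7.34 in wild-type cells in medium, in the direction of the labels. Median signals of all probesets ran from 2.23 to 2.29 over the arrays. All 9 measured macrophage markers were above the floor on every array.

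Ifitm6 varied most of the 5 genes. Its signal was 7.33 in Stat6-/- cells with IL-4, 7.20 in Stat6-/- cells in medium, 1.57 in wild-type cells with IL-4 and 5.55 in wild-type cells in medium. The wild-type array with IL-4 was thus the lowest and lay under the floor, and both Stat6-/- arrays were above both wild-type arrays. Ifitm1, whose protein is known mainly from the cell surface and early endosomes, was at 6.14 in Stat6-/- cells with IL-4, 5.53 in Stat6-/- cells in medium, 3.35 in wild-type cells with IL-4 and 5.13 in wild-type cells in medium. The wild-type array with IL-4 was again the lowest, and all 4 were above the floor.

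Ifitm3, the endosomal antiviral member, was at 10.86 in Stat6-/- cells with IL-4, 10.64 in Stat6-/- cells in medium, 9.86 in wild-type cells with IL-4 and 10.55 in wild-type cells in medium. Ifitm2, a close relative of Ifitm3 that also sits in endosomes, was at 9.65 in Stat6-/- cells with IL-4, 9.52 in Stat6-/- cells in medium, 8.73 in wild-type cells with IL-4 and 9.45 in wild-type cells in medium. In both genes 3 arrays lay close together and the wild-type array with IL-4 was lower. Ifitm1, Ifitm2, Ifitm3 and Ifitm6 thus shared 1 order of the arrays, with Stat6-/- with IL-4 highest, then Stat6-/- in medium, wild type in medium and wild type with IL-4. The share of all genes with this order was not counted. A part of it, higher with IL-4 in Stat6-/- cells and lower in wild type, was found in 20.1% of 10798 genes. Neighbours in that order often differed little: the Stat6-/- array with IL-4 and the one in medium were 0.13 apart for Ifitm6 and 0.14 apart for Ifitm2, and no replicate spread is available to judge such gaps. In medium the genotypes were 0.06 apart for Ifitm2, and with the arrays shifted to 1 common median that difference turned to -0.0014.

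Ifitm5 stood apart from this order. It was at 2.72 in Stat6-/- cells with IL-4, 2.98 in Stat6-/- cells in medium, 2.60 in wild-type cells with IL-4 and 2.82 in wild-type cells in medium, a range of 0.38 just above the floor. Olfactory receptor genes, taken here as genes that macrophages do not use, had a 95th percentile between 1.91 and 2.07 on the arrays. Of 6 measured osteoblast markers, 1 to 2 reached the floor on each array. The summed linear signal of the 6 was 31 in Stat6-/- cells with IL-4, 29 in Stat6-/- cells in medium, 33 in wild-type cells with IL-4 and 28 in wild-type cells in medium. With most of these signals under the floor, the order of the sums cannot be set against that of Ifitm5. The osteoblast genes Ibsp, Sp7 and Dmp1 were under the floor on all 4 arrays. Col1a1 of the same list was above it on all 4, between 3.08 and 3.41. Phospho1 reached the floor only in wild-type cells with IL-4, at 3.16, and Alpl only in Stat6-/- cells in medium, at 2.62.

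**Figure D1:**
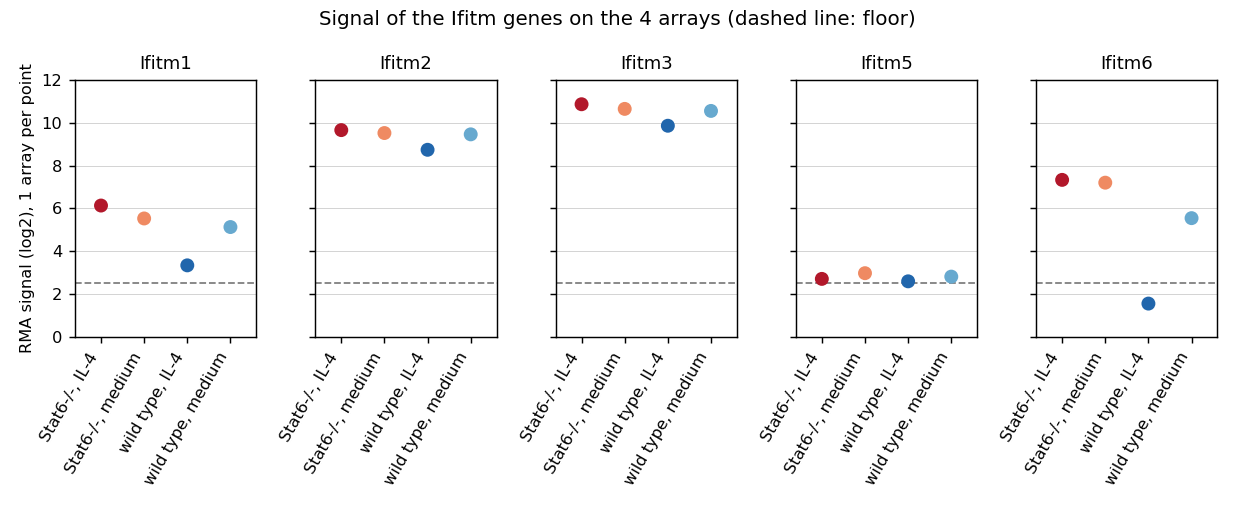
Each panel plots the log2 RMA signal of 1 gene on the 4 arrays, 1 point per array, from Stat6-/- with IL-4 on the left to wild type in medium on the right, and the dashed line is the floor at 2.52. The wild-type array with IL-4 is the lowest point in every panel, and for Ifitm6 it is the one point under the floor, at 1.57.

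The upstream sequences of Ifitm6, Ifitm1, Ifitm3 and Ifitm2, the 4 members that shared 1 order of the arrays, are shown because 3 of them are classical interferon-induced genes and interferon and IL-4 act through known DNA motifs. Each window runs from 250 bases before to 50 bases after the RefSeq start of the gene on GRCm38.p6. Capitals mark matches, on either strand, to the interferon-stimulated response element core (GAAA, any 2 bases, GAAA) or the STAT6-type site (TTC, any 4 bases, GAA). The windows lie at chr7:141016843-141017142 on the minus strand for Ifitm6, chr7:140967826-140968125 on the plus strand for Ifitm1, chr7:141010695-141010994 on the minus strand for Ifitm3 and chr7:140955912-140956211 on the minus strand for Ifitm2.
Ifitm6: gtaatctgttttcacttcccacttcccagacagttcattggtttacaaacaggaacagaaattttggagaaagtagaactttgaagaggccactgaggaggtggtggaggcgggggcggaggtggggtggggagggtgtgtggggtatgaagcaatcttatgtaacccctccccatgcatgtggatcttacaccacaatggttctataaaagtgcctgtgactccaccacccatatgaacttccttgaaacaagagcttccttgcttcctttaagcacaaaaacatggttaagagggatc
Ifitm1: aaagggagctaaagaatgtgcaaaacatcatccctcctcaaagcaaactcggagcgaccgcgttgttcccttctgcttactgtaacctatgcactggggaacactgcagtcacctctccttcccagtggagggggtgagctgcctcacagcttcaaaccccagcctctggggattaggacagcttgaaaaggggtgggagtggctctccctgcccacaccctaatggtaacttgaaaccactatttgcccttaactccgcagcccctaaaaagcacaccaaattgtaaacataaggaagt
Ifitm3: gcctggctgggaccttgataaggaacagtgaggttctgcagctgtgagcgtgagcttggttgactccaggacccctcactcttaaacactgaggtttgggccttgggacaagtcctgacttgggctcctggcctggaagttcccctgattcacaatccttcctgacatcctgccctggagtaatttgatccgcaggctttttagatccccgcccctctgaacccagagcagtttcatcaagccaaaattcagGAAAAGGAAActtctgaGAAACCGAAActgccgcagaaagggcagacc
Ifitm2: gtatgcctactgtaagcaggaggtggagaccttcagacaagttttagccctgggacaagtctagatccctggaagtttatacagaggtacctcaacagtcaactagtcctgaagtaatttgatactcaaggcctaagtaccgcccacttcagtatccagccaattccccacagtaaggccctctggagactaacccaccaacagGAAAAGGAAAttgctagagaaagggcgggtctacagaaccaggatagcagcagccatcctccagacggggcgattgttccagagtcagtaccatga

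The response element core was found in the windows of Ifitm3 and Ifitm2. Ifitm3 had 2 matches, at bases 3 to 12 and 20 to 29 after its start. Ifitm2 had 1 match, 46 to 37 bases before its start, with the same letters as the first match of Ifitm3. In the windows of Ifitm6, Ifitm1 and Ifitm5 there was no match to either motif, which says only that these letters are not in these windows, and the STAT6-type site matched in no member's window. Among all 32851 promoter windows of the same length, 3.44% held the response element core and 6.95% the STAT6-type site. A match describes the letters of the window and is not evidence of a bound site.

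IL-4 was first compared with medium in each genotype, which asks how much of the cytokine's effect needs Stat6. In Stat6-/- macrophages 0 of 5 Ifitm genes changed, where 0.355% of 10410 genes did. The differences there were 0.60 for Ifitm1, 0.22 for Ifitm3, 0.14 for Ifitm2, 0.13 for Ifitm6 and -0.27 for Ifitm5. In wild-type macrophages 2 of 5 fell and 0 rose, Ifitm6 and Ifitm1, where 6.78% of 10282 genes fell. Ifitm6 fell by 3.98 to a signal under the floor, so that its level with IL-4 was at least 8.15-fold lower than in medium. Ifitm1 fell by 1.79, which is 3.45-fold.

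The other members had smaller negative differences in wild type, -0.72 for Ifitm2, -0.69 for Ifitm3 and -0.22 for Ifitm5. Differences of that size were common on this pair of arrays: 13.8% of the genes tested had a lower difference than Ifitm2 and 14.8% a lower one than Ifitm3, against 1.24% for Ifitm1 and 0.0292% for Ifitm6. The members' median was 0.14 in Stat6-/- cells, beside -0.05 over all genes tested, and -0.72 in wild type, beside -0.11 over all genes tested. The split of all calls in wild type was 304 higher and 697 lower as deposited, 403 and 488 with quantile normalization applied again, and 408 and 501 with the intensity trend removed, which leaves 4.71% and 4.87% of genes lower. Ifitm6 and Ifitm1 fell under both of these settings too.

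The difference of the IL-4 effects, Stat6-/- minus wild type, passed 1 for Ifitm6 at 4.11 and for Ifitm1 at 2.39, where 5.77% of 10798 genes passed in that direction. With signals under the floor raised to it, the value for Ifitm6 was 3.16. The differences were 0.91 for Ifitm3, 0.86 for Ifitm2 and -0.05 for Ifitm5. The split of all calls for this measure was 623 higher and 346 lower as deposited and 461 and 420 with quantile normalization applied again.

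Stat6-/- was next compared with wild type within each culture. With IL-4, 3 of 5 Ifitm genes were higher in Stat6-/- cells and 0 lower, where 4.01% of 10433 genes were higher. Ifitm6 was 5.77 higher on the log2 scale, and since the wild-type array was under the floor its level in Stat6-/- cells was at least 28.1-fold higher. Ifitm1 was 2.79 higher, which is 6.91-fold. Ifitm3 was 1.002 higher and just passed the 2-fold rule, and with the arrays shifted to 1 common median its difference of 0.95 did not pass. Ifitm2 at 0.92 and Ifitm5 at 0.11 did not pass. This comparison shares the wild-type array with IL-4 with the wild-type IL-4 effect above, so a low value on that array enters both.

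In medium, where no IL-4 was added, 1 of 5 was higher in Stat6-/- cells, Ifitm6, at 1.65 or 3.14-fold, where 0.301% of 10299 genes were higher. Its signals on this pair of arrays were 7.20 in Stat6-/- cells and 5.55 in wild type, both well above the floor. The other differences were 0.40 for Ifitm1, 0.16 for Ifitm5, 0.10 for Ifitm3 and 0.06 for Ifitm2. The split of all calls in medium was 31 higher and 118 lower as deposited, 42 and 71 with quantile normalization applied again and 38 and 78 with the intensity trend removed. The Ifitm6 difference ran from 1.59 to 1.84 over the processing alternatives, and differences between cultures of 1 genotype were not measured.

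**Figure D2:**
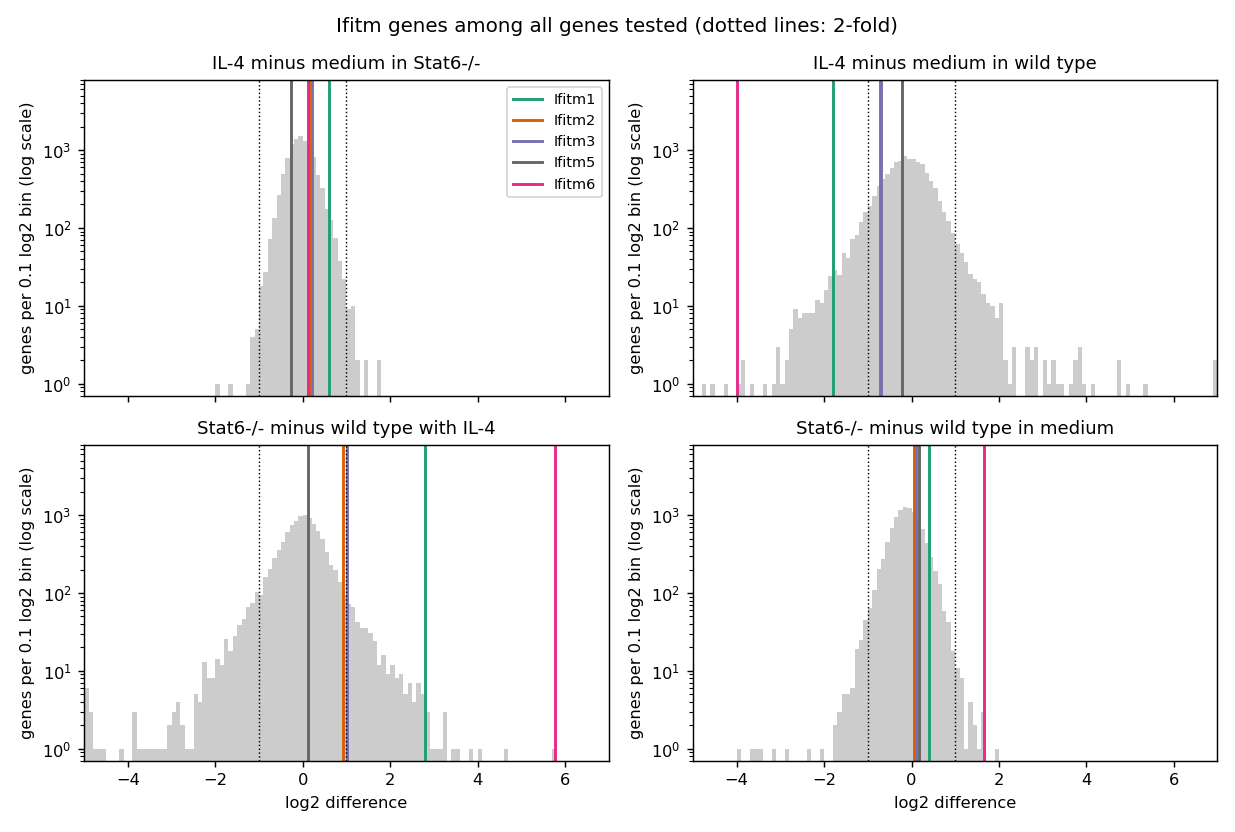
Grey bars count all genes tested per 0.1 of log2 difference on a log scale, with values beyond the axis put in the end bins, in the 4 comparisons of a pair of arrays, and coloured lines mark the 5 Ifitm genes. In wild type the Ifitm6 line lies at -3.98 and the Ifitm1 line at -1.79, the lines of Ifitm2 and Ifitm3 nearly coincide at -0.72 and -0.69, and in Stat6-/- cells all 5 lines lie between the dotted 2-fold lines.

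Ifitm1 and Ifitm2 had further probesets, which give a second reading of the same arrays. The second Ifitm1 probeset was at 5.16 in Stat6-/- cells with IL-4, 3.58 in Stat6-/- cells in medium, 2.42 in wild-type cells with IL-4 and 3.26 in wild-type cells in medium. It kept the order of the arrays of the first, and its value in wild type with IL-4 lay just under the floor. Its IL-4 difference was 1.58 in Stat6-/- cells, past 2-fold, where the first probeset had 0.60, and -0.84 in wild type, short of 2-fold, where the first had -1.79. The difference between both IL-4 effects was nearly the same, 2.41 for the second probeset and 2.39 for the first. Both probesets of Ifitm1 thus gave opposite signs of the IL-4 difference in the 2 genotypes, but they differed in which genotype passed the rule.

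The 3 probesets of Ifitm2 gave IL-4 differences of 0.14, 0.12 and 0.11 in Stat6-/- cells and of -0.72, -0.60 and -0.63 in wild type. None of these passed 2-fold, and the probesets had the same sign in each genotype. Ifitm3, Ifitm5 and Ifitm6 had 1 probeset each. The Ifitm genes resemble each other in sequence, and whether probes of one bind transcripts of another was not tested.

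**Figure D3:**
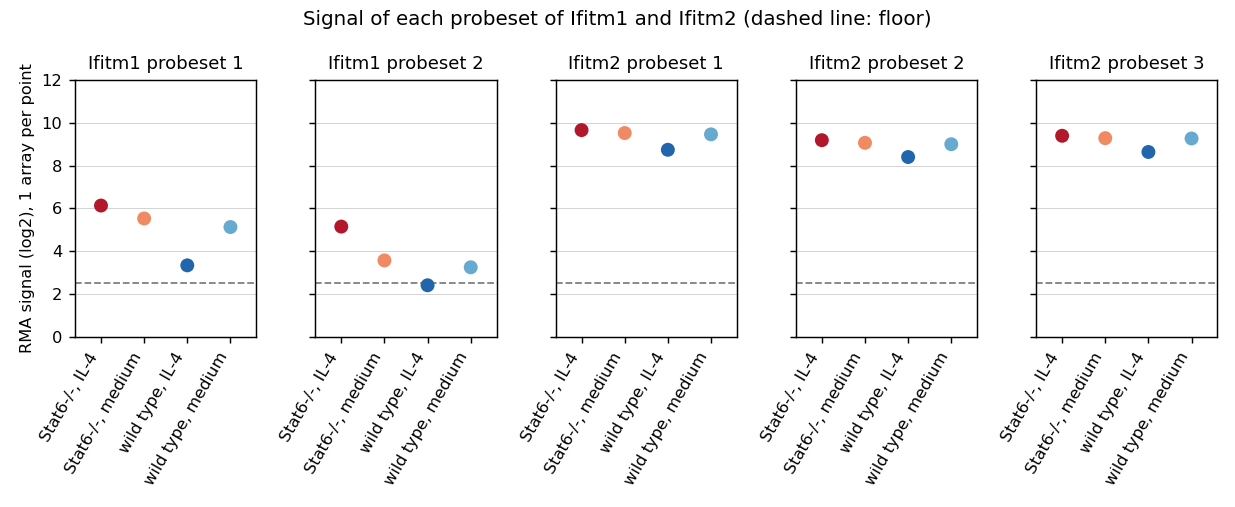
Panels plot the log2 RMA signal of the 2 probesets of Ifitm1 and the 3 of Ifitm2 on the 4 arrays, 1 point per array, with the floor as a dashed line; the probeset numbered 1 represents the gene elsewhere. The second Ifitm1 probeset shows a larger gap between both Stat6-/- arrays, 5.16 with IL-4 and 3.58 in medium, than the first, 6.14 with IL-4 and 5.53 in medium, while the Ifitm2 panels look alike.

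All 5 genes lie in 1 cluster on chromosome 7, in the RefSeq order Ifitm5, Ifitm2, Ifitm1, Ifitm3 and Ifitm6, so the genes that fell with IL-4 in wild type are separated by Ifitm3, which did not pass the rule. Of the 6 genes annotated next to each end of the cluster, 4 were measured on each side and 2 of those 4 reached the floor: Psmd13, a proteasome subunit, and Pgghg, a collagen-modifying glucosidase, on the side of Ifitm5, and the junction protein gene Pkp3 and the receptor gene Sigirr on the side of Ifitm6. Cox8b and Nlrp6 on the side of Ifitm5 and B4galnt4 and Ano9 on the side of Ifitm6 were under the floor on all 4 arrays, and Gm15542, BC024386, Gm39114 and Gm33560 were not analysed here. In the comparisons of a pair of arrays 0 of the neighbours that reached the floor passed the rule, where 0.355% to 9.74% of all genes tested did. For so few genes 0 is near these shares, and the neighbours under the floor could not pass. Pgghg, the gene next to Ifitm5, was at 4.20 in Stat6-/- cells with IL-4, 3.97 in Stat6-/- cells in medium, 3.51 in wild-type cells with IL-4 and 4.45 in wild-type cells in medium. Its IL-4 difference was 0.23 in Stat6-/- cells and -0.93 in wild type. The difference between these effects, 1.16, passed the rule, where 5.77% of all genes tested passed in that direction. Pkp3 and Sigirr had IL-4 differences between 0.07 and 0.13 in both genotypes.

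**Figure D4:**
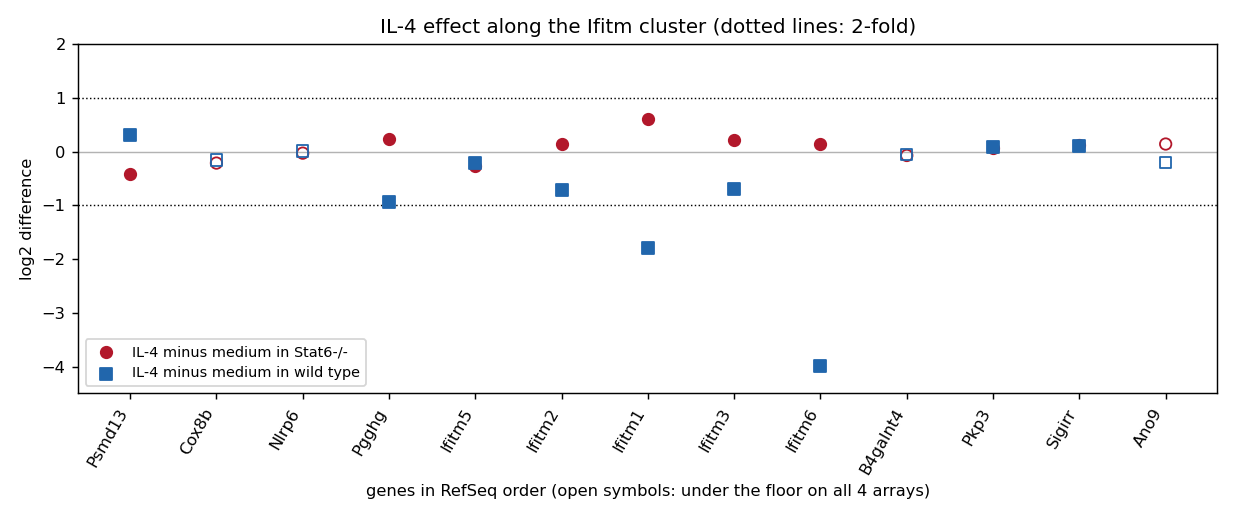
The IL-4 difference in Stat6-/- cells (circles) and in wild type (squares) is plotted for the measured genes of the cluster and its flanks in RefSeq order, with equal spacing between genes and open symbols for genes under the floor on all 4 arrays. The squares of Ifitm1 at -1.79 and Ifitm6 at -3.98 lie below the dotted 2-fold line, and the flanking genes lie within it.

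Other genes with the CD225 fold were dim. Of 10 listed, 7 were measured and 4 reached the floor on at least 1 array, Prrt1, Syndig1l, Tmem91 and Trarg1. In each comparison 0 of them changed, where 0.355% to 9.74% of all genes tested did, so for so few genes 0 is near these shares. Ifitm7 and Ifitm10, the remaining Ifitm genes measured, did not exceed 2.40 on any array. In wild type the median IL-4 difference was 0.38 over the 3 genes of this list that could be tested, and it was 0.06 over 4 genes in Stat6-/- cells. Ifitm7 and Ifitm10, at -0.18 and -0.05 in wild type, were under the floor and not counted. The genes tested are too few and too dim to be set against the Ifitm genes.

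Proteins that modify or assist IFITM proteins were measured in 11 of 11 cases, and 10 reached the floor. In Stat6-/- cells 0 of 10 changed with IL-4, where 0.355% of all genes tested did. In wild type 1 rose and 1 fell with IL-4, where 2.96% of all genes tested rose and 6.78% fell. Fyn, a kinase that phosphorylates human IFITM3, rose by 1.89, with 6.81 with IL-4 and 4.92 in medium. Zdhhc20, an enzyme that attaches palmitate to IFITM3, fell to 4.93 in wild type with IL-4, against 6.09 in wild type in medium. Setd7, a methyltransferase of human IFITM3, was at 4.13 in Stat6-/- cells with IL-4 and 3.02 in wild type with IL-4, a difference of 1.11. Zmpste24, a membrane protease and IFITM cofactor, and Vapa, a membrane protein that IFITM3 binds, did not pass in any comparison, and Nedd4, a ubiquitin ligase for IFITM3, was under the floor on all 4 arrays.

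The interferon pathway, which induces Ifitm1, Ifitm2 and Ifitm3, was described by its receptors and signalling genes and by its other targets. Of 15 receptor and signalling genes measured, all reached the floor, and 0 changed with IL-4 in Stat6-/- cells, where 0.355% of all genes tested did. In wild type 1 of 15 rose and 1 fell, with a median of -0.31, which is near the shares over all genes tested, where 2.96% rose and 6.78% fell. Ifnar2, a chain of the type I interferon receptor, was at 7.18 with IL-4 and 8.52 in medium in wild type, so that it fell by 1.34, and it was 1.12 higher in Stat6-/- cells than in wild type with IL-4. Socs1, an inhibitor of cytokine and interferon signalling, rose by 1.51 in wild type with IL-4, and with IL-4 it was at 2.97 in Stat6-/- cells and 4.27 in wild type. Jak2, a kinase of the interferon gamma receptor, was lower in Stat6-/- cells than in wild type with IL-4, at 5.36 and 6.70, where 4.83% of all genes were lower. Irf7 and Stat2, transcription factors of the type I response, had differences of -0.71 and -0.86 in wild type and did not pass.

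Other interferon-stimulated antiviral genes moved in the direction of Ifitm6 and Ifitm1 with IL-4. Of 28 that reached the floor, 0 changed in Stat6-/- cells, with a median of -0.08, where 0.355% of all genes tested changed. In wild type 18 fell and 0 rose, with a median of -1.18, where 6.78% of all genes tested fell. With IL-4, 14 of 28 were higher in Stat6-/- cells than in wild type and 0 lower, with a median of 1.004, where 4.01% of all genes tested were higher. The largest of these differences were 3.49 for Ifit3, 2.85 for the chemokine gene Cxcl10, 2.48 for Ifit2 and 2.28 for Rsad2, all classical antiviral response genes. In medium 0 of 28 differed between the genotypes, where 1.45% of all genes did, with a median of -0.14, and Ifitm6 was at 1.65 there. The list was chosen with earlier results of these data known, so its counts are no independent support.

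**Figure D5:**
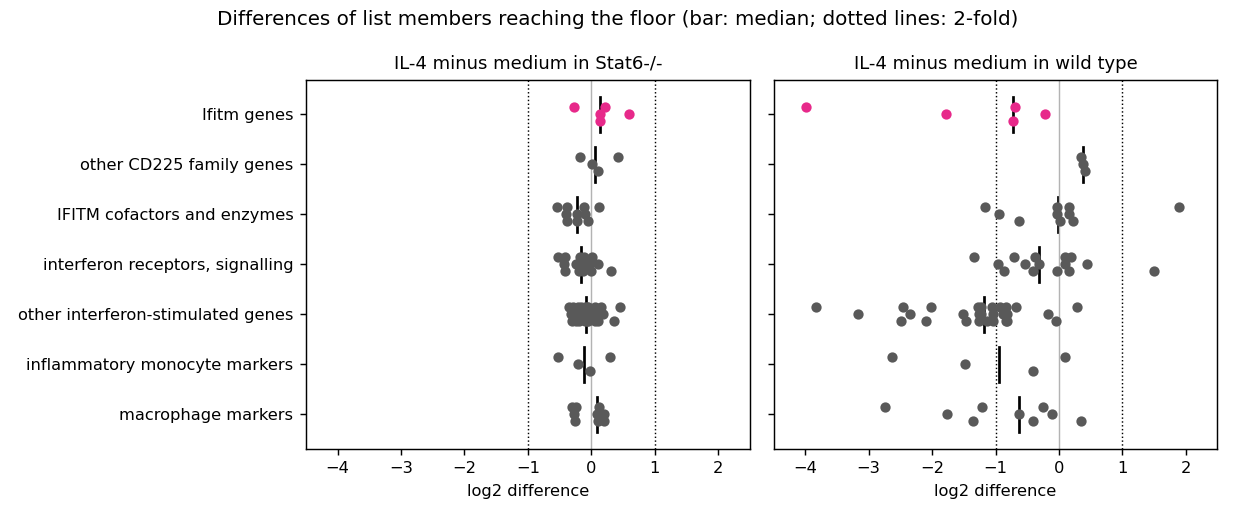
Points are genes that could be tested, bars are list medians and dotted lines mark 2-fold, for the IL-4 difference in Stat6-/- cells on the left and in wild type on the right. In wild type the medians are -0.72 for the Ifitm genes and -1.18 for other interferon-stimulated genes, and in Stat6-/- cells no point of these lists passes the 2-fold lines.

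Markers of other cells were read beside these results, since RNA came from sorted cells in bulk, where fewer cells of a type and less RNA per cell cannot be told apart. Of 9 inflammatory monocyte markers listed, 6 were measured and 4 reached the floor on every array, and the summed linear signal of the 6 was 483 in Stat6-/- cells with IL-4, 459 in Stat6-/- cells in medium, 123 in wild-type cells with IL-4 and 276 in wild-type cells in medium, which is the order of Ifitm6. Ms4a4c, a membrane protein gene, had the highest signal of the 6 on every array and so weighed most in this sum. Of the 4 markers above the floor only Ms4a4c had the order of Ifitm6 by itself. The coagulation factor XIII gene F13a1, the chemokine receptor gene Ccr2 and Hp, which encodes haptoglobin, were highest in Stat6-/- cells in medium. With IL-4 in wild type Ms4a4c fell by 1.48 and F13a1 fell by 2.64, and the differences of Ccr2, -0.42, and Hp, 0.10, did not pass. The part of these markers in the Ifitm6 result was not tested, and Plac8 and Vcan of the same list were under the floor on all 4 arrays. The summed signal of 9 macrophage markers was 9849 in Stat6-/- cells with IL-4 and 9844 in Stat6-/- cells in medium. It was 7252 in wild-type cells with IL-4 and 10943 in wild-type cells in medium. With IL-4 in wild type 4 of the 9 fell: Cd14, Fcgr1, Mertk and Adgre1, which encodes F4/80. Of all genes tested 6.78% fell there, which is the share beside these 4 of 9 and beside 2 of 4 inflammatory monocyte markers.

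The 12 neutrophil and precursor markers had a summed signal of 200 in Stat6-/- cells with IL-4, 191 in Stat6-/- cells in medium, 249 in wild-type cells with IL-4 and 233 in wild-type cells in medium. The defining neutrophil genes S100a8, Camp, Ltf and Elane were under the floor on all 4 arrays, as were 4 more of the 12, and 2 to 4 of the 12 markers reached it on an array. Csf3r, the receptor gene of a granulocyte growth factor, and the collagenase gene Mmp8 were well above it on every array and weighed most in the sum. Csf3r was at 7.08 in Stat6-/- cells with IL-4, 6.97 in Stat6-/- cells in medium, 6.98 in wild-type cells with IL-4 and 7.30 in wild-type cells in medium. Mmp8 rose by 1.38 with IL-4 in wild type, while Ngp, a granule protein gene, fell to a signal under the floor, at least 1.21-fold. The part of these 12 markers in the Ifitm6 result was not tested. Summed signals over the 4 arrays ran from 34 to 45 for fibroblast markers, from 14 to 17 for T cell markers and from 17 to 20 for B cell markers. Of the fibroblast markers Postn, which encodes a matrix protein, rose at least 2.04-fold with IL-4 in wild type, against a signal under the floor in medium. The IL-4 response itself was present in wild type, where 10 of 12 listed genes rose, beside 2.96% of all genes tested. In Stat6-/- cells 0 of the 7 that could be tested rose, where 0.24% of all genes tested did. The largest of these rises were at least 223-fold for Retnla and at least 67.4-fold for Arg1, classical markers of alternatively activated macrophages, at least 34.4-fold for Mgl2 and at least 18.6-fold for Flt1, a growth factor receptor gene. In medium 2 of 7 of these genes were higher in Stat6-/- cells, as Ifitm6 was, where 0.301% of all genes tested were higher. They were the lectin gene Clec10a, by 1.67, and Mgl2, also a lectin gene, at least 2.25-fold. The Mgl2 signals were 3.69 in Stat6-/- cells and 2.26, under the floor, in wild type.

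The genes with the profile most like each member were found by the Euclidean distance between mean-centred log2 signals over the 4 arrays, which is a description over 4 points. For Ifitm6, among 1677 genes with a range of at least 1, they were Cd28 (1.39), a costimulatory receptor, the iron exporter gene Slc40a1 (1.43), the protease gene Ctse (1.48), Kmo (1.86), an enzyme of tryptophan breakdown, and Fcgr4 (1.98), an IgG receptor. These distances are larger than those of the other members, and so is the range of Ifitm6 over the arrays, 5.77. In medium Ctse was 1.68 higher in Stat6-/- cells than in wild type, beside 1.65 for Ifitm6, while Cd28 differed by 0.33 there. The distances of Ifitm6 rest in part on signals under the floor in wild type with IL-4, 1.57 for Ifitm6, 1.31 for Cd28 and 1.58 for Kmo. Setting such signals to the floor, a choice made once the values were known, gave the order Ctse (0.71), Slc40a1 (1.14), Fcgr4 (1.30), Cd28 (1.44) and the sodium-proton exchanger gene Slc9a9 (1.55), so that the order changed and Kmo was no longer among the 5.

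For Ifitm1 the nearest were Arhgef3 (0.35), Ms4a4c (0.36), the glutathione peroxidase gene Gpx3 (0.40), Fosb (0.42), a subunit of the AP-1 transcription factor, and Gramd1b (0.47). For Ifitm3 they were Arrdc1 (0.04), Prxl2a (0.11), H2-T10 (0.14), Zc3h12d (0.14) and the phosphatase gene Dusp6 (0.16). For Ifitm2, with no minimum range and 10797 candidates, Slfn9 (0.05), Saraf (0.05), Adprm (0.06), Ldb1 (0.07) and Pld1 (0.07) lay nearest. Ifitm5, the member with the smallest range, had Mllt3 (0.01), Btbd1, Ppp1r9a, Sox15 and Creld1 nearest, all within 0.04. Among the members themselves Ifitm2 and Ifitm3 were nearest to each other, at 0.08. Ifitm2 was thus nearer to Ifitm3 than Prxl2a was, but its range of 0.92 kept it out of the candidates for Ifitm3. Setting signals under the floor to it put Adprm first for Ifitm2 and replaced Sox15 by Samhd1 for Ifitm5, and the 5 genes of Ifitm1 and of Ifitm3 kept their order.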

How the data were processed

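Per the submitters' processing notes, the authors made the deposited log2 signals with RMA in Affymetrix Expression Console. Versions, settings and genome build were not stated. The values' range set the log base. RMA draws low signals together, which understates fold changes of dim genes. Of 35557 probesets, 21789 had 1 gene symbol in the platform annotation, 1621 several and 12147 none in the annotation used here; 21698 symbols matched RefSeq (GRCm38.p6) by Entrez identifier, and 0 changed. The 4 columns were all mapped, 1 array per group. Differences, floor and the 2-fold rule were computed over all 19938 genes in Python 3.11.15 with pandas 2.3.3 and statsmodels 0.14.6, after tests on simulated data. A fold against a signal under the floor was taken against the floor. Promoter sequences are RefSeq's, on GRCm38.p6, and all 5 members matched. Another planned motif is not reported here. Proteins were not analysed here. Members and lists were chosen with earlier results of these data known. Named were the 5 members, Stat6, up to 4 of the largest changes of each list, the 6 neighbours on each side and the 5 nearest profiles; unchanged list genes, and the nearest profiles with signals raised to the floor, were chosen after values were seen. The number of arrays limits the precision.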

Additional observations from a re-analysis of the deposited data

Results flagged for a closer look

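For 4 of 5 Ifitm genes the difference between IL-4 and medium was positive in Stat6-/- cells and negative in wild type, as it was for 20.1% of 10798 genes. The difference between both effects, Stat6-/- minus wild type, was 4.11 for Ifitm6, 2.39 for Ifitm1, 0.91 for Ifitm3 and 0.86 for Ifitm2. With 1 array per group this difference was not tested, and the positive values in Stat6-/- cells were all short of 2-fold for the probesets that represent the genes.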

How the results depend on the processing

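The alternatives were a shift of the arrays to 1 median, quantile normalization applied again, the intensity trend removed by lowess (fraction 0.3), no floor, a floor at the 75th percentile, signals raised to the floor, the mean of all probesets of a gene, probesets with several symbols counted, and a 1.5-fold threshold. Of 225 values of single genes under them, 217 stayed on the same side of the rule. Many of the 225 could not change, so this count is no measure of stability. No member had a probeset with several symbols, and dropping the floor altered nothing because every member already reached it. Raising signals to the floor altered only Ifitm6, and the mean of all probesets only Ifitm1 and Ifitm2. The count of members that changed with IL-4 in Stat6-/- cells was 0. It became 1 with the mean of all probesets (Ifitm1, 1.09), where 0.252% of all genes rose. At 1.5-fold it was also 1 (Ifitm1), where 2.94% of all genes rose. At 1.5-fold the count in wild type was 4 in place of 2, where 19.2% of all genes fell, and the count for the difference of the IL-4 effects 4 in place of 2, where 16.4% were higher; Ifitm2 and Ifitm3 were added in both. The count for Stat6-/- against wild type with IL-4 ran from 2 with the arrays shifted to 1 median, where 3.69% of all genes were higher, to 4 at 1.5-fold, where 10.6% were. Over the alternatives Ifitm6 lay between -3.98 and -3.03 for IL-4 in wild type, and Ifitm1 between -1.79 and -1.31. Quantile normalization applied again moved the median of all genes tested by 0.13 for IL-4 in wild type and by 0.13 for the genotypes in medium; relative to it no member changed its call. No paired analysis was possible because each group held 1 array and the labels give no replicate numbers.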
